A study of Sus scrofa with 12 samples.

Results

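FOSL1, DUSP4, DUSP5, DUSP6, SPRY2, SPRY4, SPRED1, ETV4, ETV5 and MYC are genes whose transcripts follow the activity of the ERK kinases, and most of their proteins feed back on the same pathway. These 10 genes were chosen by name with earlier results of these data known, so their shares beside those of all genes are descriptions. Each matched 1 of the 21153 rows of a table of raw read counts. RNA of primary porcine arterial endothelial cells (ECs) had been sequenced after 48 h of laminar shear stress, the drag of flowing medium on the cell surface, in an Ibidi flow chamber. The study asked how ECs respond to the low (2 dyne/cm2) and supra-high (80 dyne/cm2) shear stress found in intracranial aneurysms, compared with a physiological 30 dyne/cm2. There were 12 libraries in 4 groups of 3: 2 dyne/cm2, a first and a second set at 30 dyne/cm2, and 80 dyne/cm2.

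Every group held untreated ECs of the same 3 pigs, which carry the replicate numbers 1, 2 and 3 and are called donors 1, 2 and 3 here, so each donor gave 4 cultures. The methods state 8-month-old pigs from a slaughterhouse and a comparison within 1 donor and cell passage. The sources differ on the artery, which is the aorta in the labels and the coronary artery in the methods. They also differ on the chamber. The design text places 2 dyne/cm2 and its control in one type of slide, and 80 dyne/cm2 and its control in another type at a higher seeding density, whereas the methods name the first slide type alone. The labels number the sets at 30 dyne/cm2 without tying either to a chamber. Set 1 served here as the control of 2 dyne/cm2 and set 2 as that of 80 dyne/cm2.

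Growth factor receptors and flow act through RAS, RAF and MEK to phosphorylate ERK, which enters the nucleus and switches on immediate and delayed response genes. Among these are the brakes of the pathway: dual-specificity phosphatases (DUSPs) remove the activating phosphates of ERK, and Sprouty and Spred proteins act further up, at receptors, RAS and RAF. In endothelium ERK signalling carries much of the response to vascular endothelial growth factor and guides proliferation, sprouting and arterial identity. No protein or phosphorylation was measured here, so the values describe transcripts alone.

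Libraries held 29606854 to 41058902 counts on genes, and members ranged from 9 counts (ETV5 in 1 library at 80 dyne/cm2) to 5284 (FOSL1 in 1 library of set 1). All 10 passed the filter on low values in each comparison. Levels are given as CPM, counts scaled to the library total, after TMM normalisation over the 12 libraries. Since they are not divided by transcript length, levels are compared between groups for 1 gene and never between genes. A gene was called when it changed at least 2-fold with an adjusted p under 0.05 in edgeR's quasi-likelihood test with donor as a term. Fibronectin (FN1) took the largest share of counts at 2 and 30 dyne/cm2, up to 11.096% in donor 3 at 2 dyne/cm2. In bulk RNA, fewer cells with a transcript and less of it per cell cannot be told apart.

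In set 1 at 30 dyne/cm2, 9 of the 10 genes had their highest mean, and the exception, SPRY2, was highest at 2 dyne/cm2. How many of all genes had theirs in set 1 was not counted. The MYC mean in set 1 rested on donor 1, at 64.4 CPM against 22.2 and 21.1 CPM in donors 2 and 3. From set 1 to 2 dyne/cm2, 8 of 10 were lower in all 3 donors, a state shared by 34.3% of all genes tested, and the members' median log2 fold change was −0.59 against 0.00 over all genes. DUSP4 was the 1 member called, against 9.6% of genes called in either direction and 4.54% called lower. From set 2 to 80 dyne/cm2 no member was called, against 2.2% of all genes. From set 1 to set 2, both at 30 dyne/cm2, all 10 estimates were below 0. Their median was −1.18, against 0.01 over all genes, and edgeR called none of them. Within each donor, 48.9% to 50.9% of all genes were lower in set 2.

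**Figure D1:**
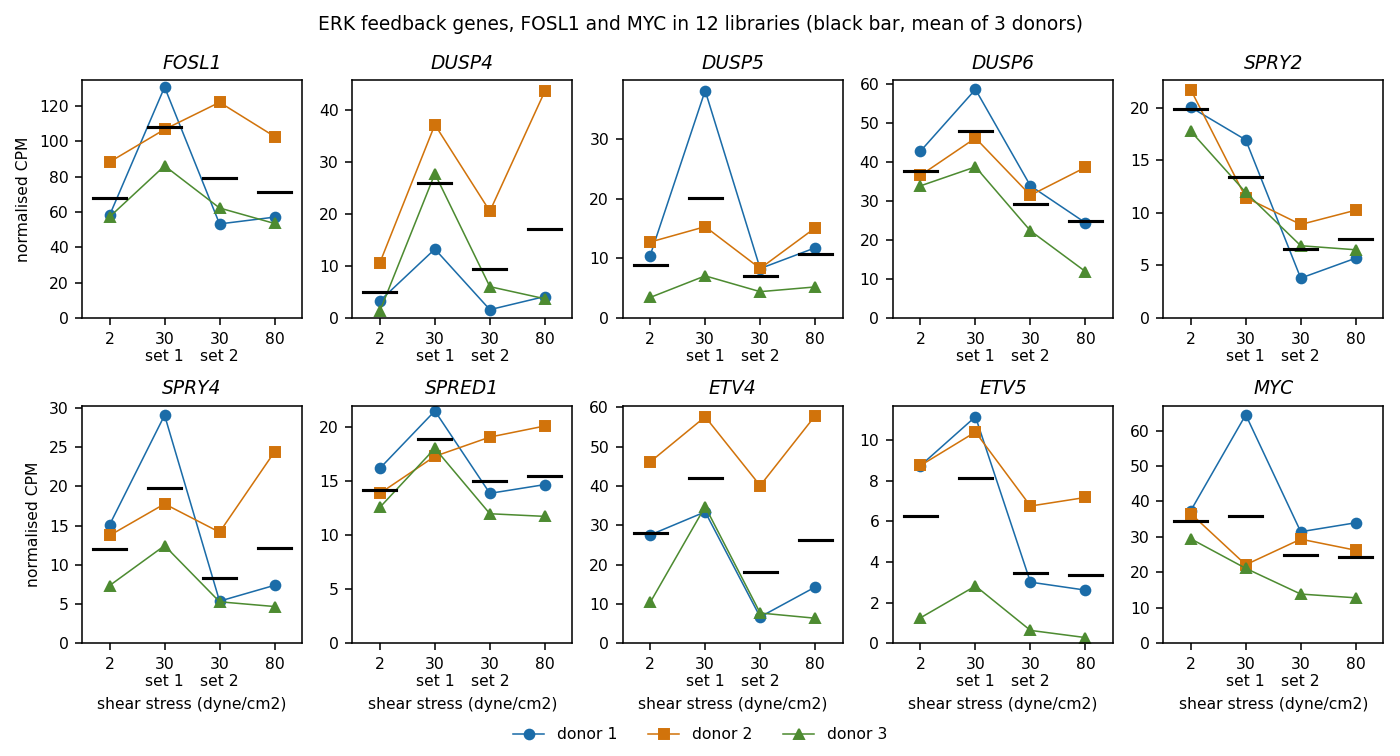
Normalised CPM (vertical axis, starting at 0) of each gene in the 12 libraries, by shear stress in dyne/cm2 and set; points joined by a line are the 4 cultures of 1 donor and black bars are means of 3. Set 1 has the highest bar in 9 of 10 panels, and in the SPRY2 panel the 3 points at 2 dyne/cm2 lie above the other 9.

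Among the phosphatases, DUSP4 gave the largest change. DUSP4 encodes a nuclear phosphatase induced by ERK that acts on ERK, JNK and p38, and lies on chromosome 15 (55491084 to 55508460, Sscrofa11.1). In donors 1, 2 and 3 it stood at 3.29, 10.6 and 1.32 CPM at 2 dyne/cm2 and at 13.2, 37.1 and 27.7 CPM in set 1. The groups did not overlap, as was so for 3 of the 10 members (DUSP4, SPRY2 and SPRED1) and for 37.8% of all genes tested. DUSP4 fell by 2.57 on the log2 scale (SE 0.53), 5.95-fold, with an edgeR adjusted p of 0.0273, and was lower in 3 of 3 donors by 2.01, 1.81 and 4.39.

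The DUSP4 call was sensitive to the choice of control and to 1 donor. Against set 2 in place of set 1 its log2 fold change was −0.71 (edgeR adjusted p = 0.414), and against both sets together −1.88 (0.100). Without donor 2 it was −3.06 (0.0513), and without the donor term −2.35 (0.104). Over the 12 alternatives the adjusted p ran from 1.03e-07 to 0.414 and the estimate stayed below 0 in each.

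At 80 dyne/cm2 DUSP4 differed strongly between donors. It stood at 4.11, 43.5 and 3.68 CPM against 1.59, 20.5 and 6.005 CPM in set 2. Donors 1 and 2 were higher by 1.37 and 1.09 on the log2 scale and donor 3 was lower by 0.71, so that the groups overlapped. No member had groups without overlap in this comparison, against 14.9% of all genes. The estimate was 0.59 (SE 0.35, 95% interval −0.24 to 1.41, edgeR adjusted p = 0.334). Without donor 3 it was 1.198 and was called (edgeR adjusted p = 0.0373, the lowest of 12 alternatives, whose highest was 0.944).

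DUSP5, a nuclear phosphatase specific for ERK that is known for its role in vessel development, lies on chromosome 14 (120906340 to 120919398). At 2 dyne/cm2 it stood at 10.5, 12.7 and 3.43 CPM against 38.1, 15.3 and 7.05 CPM in set 1. It was lower in all 3 donors although the groups overlapped. Its log2 fold change of −1.05 (SE 0.32) passed 2-fold and missed the adjusted p (edgeR, 0.0707). DESeq2 with the donor term gave −1.04 with an adjusted p of 0.00717, the lowest of 12 alternatives, which reached 0.451.

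DUSP5 was also the member nearest to a call at 80 dyne/cm2. It stood at 11.7, 15.1 and 5.19 CPM against 8.27, 8.29 and 4.40 CPM in set 2. Of the 10 genes it alone moved in 1 direction in all 3 donors, as did 49.4% of all genes tested, and it alone had an unadjusted p under 0.05, as did 26.1%. The log2 fold change was 0.55 (SE 0.15, 95% interval 0.19 to 0.90, edgeR adjusted p = 0.0685). No member passed the adjusted p alone, which 8.4% of all genes did.

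DUSP6, the cytoplasmic ERK phosphatase often used as a readout of ERK activity, lies on chromosome 5 (93303058 to 93307510). It stood at 42.9, 36.7 and 33.9 CPM at 2 dyne/cm2 and at 58.7, 46.2 and 38.8 CPM in set 1. Every donor was lower, yet by little, and the log2 fold change of −0.31 (SE 0.09) had an edgeR adjusted p of 0.0655. Under supra-high shear stress DUSP6 stood at 24.4, 38.7 and 11.9 CPM against 33.9, 31.5 and 22.4 CPM in set 2. Donors 1 and 3 were lower and donor 2 was higher, with a log2 fold change of −0.35 (SE 0.20, 95% interval −0.83 to 0.13, edgeR adjusted p = 0.316).

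Against set 1, SPRY2 and SPRY4 passed the adjusted p in opposite directions at 2 dyne/cm2, whereas against set 2 both had estimates above 0. SPRY2, an inhibitor of RAS and RAF activation downstream of growth factor receptors, lies on chromosome 11 (52153695 to 52158766). It stood at 20.04, 21.7 and 17.8 CPM at 2 dyne/cm2 and at 16.9, 11.5 and 11.9 CPM in set 1, with no overlap. It was higher in 3 of 3 donors, by 0.24, 0.92 and 0.57 on the log2 scale. The log2 fold change of 0.59 (SE 0.16), 1.51-fold, passed the adjusted p (edgeR, 0.0489) and stayed under 2-fold. Over 12 alternatives the estimate ran from 0.43 to 1.67 and the adjusted p from 0.0145 to 0.149, and against set 2 SPRY2 was called.

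SPRY2 stood at 5.68, 10.2 and 6.48 CPM at 80 dyne/cm2 and at 3.79, 8.89 and 6.87 CPM in set 2. These groups overlapped, and the log2 fold change was 0.22 (SE 0.16, 95% interval −0.15 to 0.60, edgeR adjusted p = 0.416). Its means ran from 19.8 ± 1.98 CPM (SD, n = 3) at 2 dyne/cm2 through 13.4 ± 3.04 in set 1 and 7.47 ± 2.44 at 80 dyne/cm2 to 6.52 ± 2.57 in set 2. The last pair overlapped and the other neighbours in this order did not.

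SPRY4, a relative with the same place in the pathway, lies on chromosome 2 (143877334 to 143891280). It stood at 15.1, 13.7 and 7.36 CPM at 2 dyne/cm2 and at 29.1, 17.8 and 12.4 CPM in set 1. Each donor was lower, by 0.94, 0.37 and 0.76 on the log2 scale, and the groups overlapped because the donors differed in level. The log2 fold change of −0.68 (SE 0.14), 1.598-fold, passed the adjusted p (edgeR, 0.0296) but not 2-fold. Against set 2 it was 0.64, and over the 12 alternatives the adjusted p ran from 0.00447 to 0.746. At 80 dyne/cm2 SPRY4 stood at 7.39, 24.4 and 4.69 CPM against 5.37, 14.2 and 5.29 CPM in set 2. Donors 1 and 2 were higher and donor 3 was lower, and the log2 fold change was 0.38 (SE 0.19, 95% interval −0.05 to 0.82, edgeR adjusted p = 0.240).

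SPRED1, which holds back RAF activation by bringing neurofibromin to RAS, lies on chromosome 1 (132903103 to 133016725). At 2 dyne/cm2 it stood at 16.2, 13.9 and 12.6 CPM, below the 21.5, 17.3 and 18.03 CPM of set 1. The groups did not overlap. The log2 fold change of −0.40 (SE 0.10), 1.32-fold, passed the adjusted p (edgeR, 0.0432) but not 2-fold. This was the lowest adjusted p under any setting run, and it was above 0.05 without each donor, without the donor term, in DESeq2 and against set 2, where it reached 0.833 with an estimate of −0.05. With 14.7, 20.1 and 11.7 CPM at 80 dyne/cm2 against 13.9, 19.1 and 11.98 CPM in set 2, its log2 fold change there was 0.04 (SE 0.10), with a 95% interval of −0.20 to 0.28 (edgeR adjusted p = 0.835). By the adjusted p alone, 4 of 10 members passed at 2 dyne/cm2, against 25.8% of all genes, and 3 of these were lower, against 12.4%.

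ETV4 and ETV5 encode PEA3-type ETS transcription factors, which are induced by ERK and phosphorylated by it. ETV4, on chromosome 12 (19531507 to 19548303), stood at 27.6, 46.1 and 10.4 CPM at 2 dyne/cm2 and at 33.4, 57.6 and 34.8 CPM in set 1. Each donor was lower and donor 3 most, by 1.74 on the log2 scale against 0.28 and 0.32 in donors 1 and 2. Its estimate was −0.74 (SE 0.31, 95% interval −1.55 to 0.07, edgeR adjusted p = 0.140). Under 80 dyne/cm2 ETV4 stood at 14.3, 57.9 and 6.39 CPM against 6.71, 40.1 and 7.71 CPM in set 2. Here donors 1 and 2 were higher and donor 3 lower, with a log2 fold change of 0.47 (SE 0.22, 95% interval −0.05 to 0.99, edgeR adjusted p = 0.233).

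ETV5, on chromosome 13 (123873346 to 123930292), had the lowest counts. It stood at 8.74, 8.74 and 1.25 CPM at 2 dyne/cm2 and at 11.14, 10.4 and 2.82 CPM in set 1. Donor 3 was far below the others in both groups. The log2 estimate was −0.51 (SE 0.21, 95% interval −1.06 to 0.03, edgeR adjusted p = 0.133). With supra-high shear stress ETV5 stood at 2.62, 7.17 and 0.283 CPM against 3.01, 6.75 and 0.636 CPM in set 2. The groups overlapped throughout and the log2 fold change was −0.21 (SE 0.23, 95% interval −0.74 to 0.33, edgeR adjusted p = 0.606).

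FOSL1 encodes FRA-1, an AP-1 subunit whose gene is induced and whose protein is stabilised by ERK, and lies on chromosome 2 (6430158 to 6436173). It stood at 58.2, 88.4 and 57.3 CPM at 2 dyne/cm2 and at 131, 107 and 86.2 CPM in set 1. Each donor was lower at 2 dyne/cm2, by 1.17, 0.27 and 0.59 on the log2 scale. The lowest library of set 1 was just under the highest at 2 dyne/cm2. The log2 fold change was −0.66 (SE 0.18, 95% interval −1.13 to −0.19), 1.58-fold, and its edgeR adjusted p of 0.0544 missed the threshold. Over the 12 alternatives the estimate lay between −0.86 and −0.15, the latter against set 2, and the adjusted p between 0.00700 and 0.421.

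FOSL1 at 80 dyne/cm2 was near its level in set 2. It stood at 57.1, 103 and 53.5 CPM at 80 dyne/cm2 and at 53.3, 122 and 62.3 CPM in set 2. Donor 2 was the highest in both groups. Its log2 fold change was −0.13 (SE 0.10, edgeR adjusted p = 0.447), and its 95% interval of −0.36 to 0.10 left out changes of 2-fold in either direction. Against set 1 in place of set 2 the estimate was −0.65 (edgeR adjusted p = 0.263), and over the 12 alternatives the adjusted p ran from 0.165 to 0.972. Means in falling order were 108 ± 22.3 CPM (SD, n = 3) in set 1, 79.3 ± 37.5 in set 2, 71.2 ± 27.5 at 80 dyne/cm2 and 68.0 ± 17.7 at 2 dyne/cm2, and each overlapped its neighbour.

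MYC, a driver of growth and proliferation whose protein ERK stabilises, lies on chromosome 4 (12455141 to 12460360). It stood at 37.4, 36.6 and 29.5 CPM at 2 dyne/cm2 and at 64.4, 22.2 and 21.1 CPM in set 1. Donor 1 was lower by 0.78 on the log2 scale while donors 2 and 3 were higher by 0.72 and 0.48. Over the donors this gave a log2 fold change of 0.15 (SE 0.31, 95% interval −0.65 to 0.95, edgeR adjusted p = 0.737), and its sign depended on the setting, with −0.14 without donor 2. MYC at 80 dyne/cm2 stood at 34.0, 26.3 and 12.8 CPM against 31.5, 29.4 and 13.9 CPM in set 2. These values were close within each donor, with a log2 fold change of −0.06 (SE 0.10, 95% interval −0.29 to 0.18, edgeR adjusted p = 0.762).

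**Figure D2:**
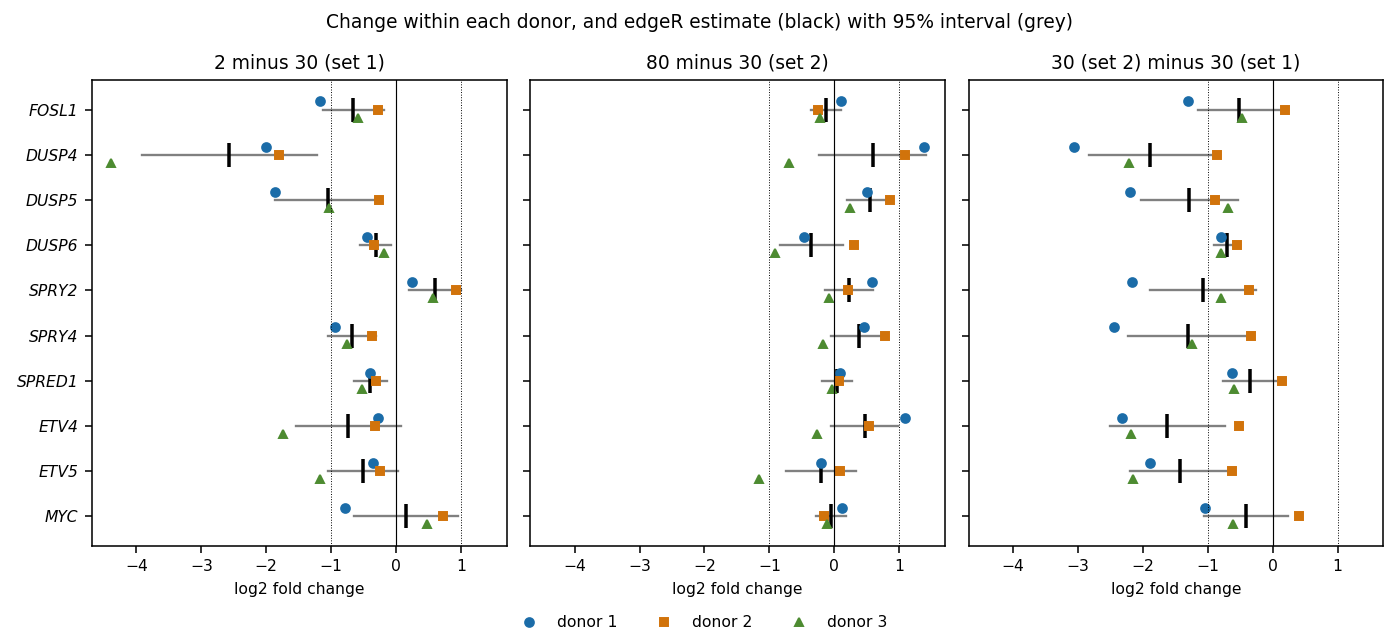
Log2 fold change of each gene within donors 1, 2 and 3 (coloured points), with the edgeR estimate (black tick) and its 95% interval (grey line), for 2 minus 30 dyne/cm2 (set 1), 80 minus 30 dyne/cm2 (set 2), and set 2 minus set 1; dotted lines mark a 2-fold change. In the third panel the black ticks run from −0.35 (SPRED1) to −1.89 (DUSP4), all left of 0.

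The sets at 30 dyne/cm2 were set against each other because both had the same shear stress. This comparison shares its libraries with the other 2, so a high value in set 1 enters both the lower values at 2 dyne/cm2 and the gap between the sets. The estimates from set 1 to set 2 were −1.89 (SE 0.38) for DUSP4, −1.62 (0.36) for ETV4, −1.43 (0.31) for ETV5, −1.30 (0.38) for SPRY4 and −1.28 (0.30) for DUSP5 on the log2 scale. SPRY2 was at −1.07 (0.33), DUSP6 at −0.70 (0.08), FOSL1 at −0.51 (0.26), MYC at −0.41 (0.26) and SPRED1 at −0.35 (0.17). The first 7 of these were lower in all 3 donors, a state of 22.8% of all genes tested, and the same 7 had an unadjusted p under 0.05. That threshold was passed by 19.2% of all genes in either direction and by 8.94% in the lower direction.

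No member was called between the sets by edgeR, where 1 gene of 11163 was (0.00896%). The smallest adjusted p among the members was 0.0656 (edgeR), that of DUSP6. DESeq2 with the donor term called DUSP4, DUSP5, SPRY2, ETV4 and ETV5, which makes 5 of 10 against 0.591% of all genes, with adjusted p-values between 0.000512 (ETV5) and 0.0495 (ETV4). DUSP6 stayed under 2-fold there with an adjusted p of 2.04e-06 in DESeq2. DUSP6 and SPRY2, 2 of 10 members, did not overlap between the sets, as was so for 10.1% of all genes.

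Donor 1 carried the largest part of the gap between the sets. Its median over the 10 genes was −2.02 on the log2 scale, against −0.44 in donor 2 and −0.80 in donor 3, while the medians over all genes lay between −0.00 and 0.01. In donor 1, DUSP4 went from 13.2 to 1.59 CPM, SPRY4 from 29.1 to 5.37 CPM and DUSP5 from 38.1 to 8.27 CPM. In donor 2 FOSL1, SPRED1 and MYC were higher in set 2. Whether slide type, seeding density or another feature of the cultures moved with the sets was not tested.

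The choice of set decided the sign of several estimates. Against set 2, the cultures at 2 dyne/cm2 gave log2 fold changes above 0 for DUSP5 (0.23), DUSP6 (0.39), SPRY4 (0.64), ETV4 (0.87) and ETV5 (0.95). Of these DUSP6 passed the adjusted p there (edgeR, 0.0468), the lowest of its 12 alternatives, which reached 0.987. SPRY2 was at 1.67 against set 2 and 0.59 against set 1. FOSL1 (−0.15), SPRED1 (−0.05) and DUSP4 (−0.71) kept theirs with smaller sizes. Against set 1, the cultures at 80 dyne/cm2 gave estimates below 0 for all 10 genes, with −1.39 for DUSP4 and −1.18 for ETV4.

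The 2 responses were compared directly in 1 fit over the 12 libraries, as the change at 2 dyne/cm2 minus that at 80 dyne/cm2. Each change has its own set as control, so this contrast takes in the gap from set 1 to set 2. That gap alone was −1.89 for DUSP4 and −1.28 for DUSP5. DUSP4 (−3.29 on the log2 scale, SE 0.83, edgeR adjusted p = 0.0127) and DUSP5 (−1.64, SE 0.45, edgeR adjusted p = 0.0187) differed, which makes 2 of 10 members against 37.1% of all genes. FOSL1 did not pass (−0.55, SE 0.31, edgeR adjusted p = 0.187). DUSP6 was at −0.01 with a 95% interval of −0.80 to 0.79. Leaving out donor 1 or donor 3 left DUSP4 alone, leaving out donor 2 left DUSP5 alone, and without the donor term no member passed. With the sets swapped, DUSP4 and DUSP5 no longer passed while DUSP6, SPRY2, ETV4 and ETV5 did, each with a positive estimate.

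The members differed more between donors than most genes did. The ratio of the highest to the lowest donor had a median over the 10 genes of 1.798 at 2 dyne/cm2, 2.03 in set 1, 2.32 in set 2 and 3.07 at 80 dyne/cm2. Over all 11456 genes it was between 1.26 and 1.35. ETV5 reached 25.3 at 80 dyne/cm2 and DUSP4 12.9 in set 2, while SPRY2 at 2 dyne/cm2 had 1.22 and DUSP6 1.26. Donor 3 was the lowest for all 10 genes at 2 dyne/cm2 and for 9 at 80 dyne/cm2. Donor 1 was the highest for 8 genes in set 1, and donor 2 for 8 genes in set 2 and 9 at 80 dyne/cm2. These counts are a description, since the genes share libraries. The same counts over all genes are not given here, so they do not show a trait particular to the members.

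**Figure D3:**
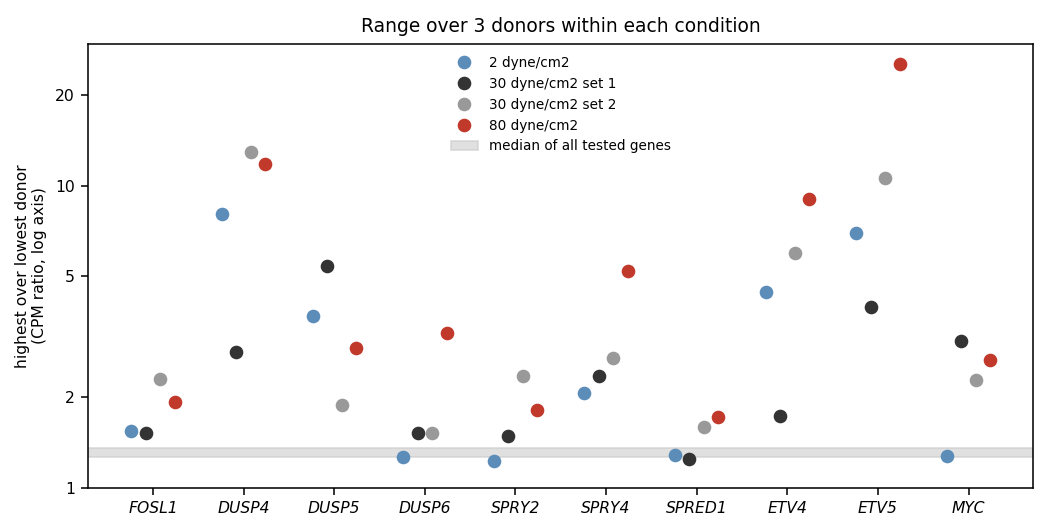
Ratio of the highest to the lowest donor's CPM (log axis) for each gene in the 4 groups, with the band of medians over all tested genes in grey (1.26 to 1.35). DUSP4, ETV4 and ETV5 lie far above the band at 80 dyne/cm2, while DUSP6 and SPRY2 at 2 dyne/cm2 lie at or under its lower edge.

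Around the 10 genes, a list held 100 other genes of the pathway in 10 roles, of which 81 were tested for low and 77 for supra-high shear stress. This list too was chosen with earlier results of these data known, so its shares are descriptions. At 2 dyne/cm2, 7 were called higher and 5 lower, against 5.06% and 4.54% of all genes, and 34 of 81 passed the adjusted p alone (42.0%, against 25.8% of all genes). At 80 dyne/cm2, 2 were called, both higher, against 1.14% of all genes, and 18 of 77 passed the adjusted p alone (23.4%, against 8.4%). No row matched 7 listed genes (RRAS2, DUSP7, JUN, JUND, ELK1, MYCL and PHLDA1), so the AP-1 partner JUN was not analysed here.

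Of the close relatives of the members at 2 dyne/cm2, DUSP1 and SPRY1 were called lower, and ETV1 and FOSL2 had estimates above 0. DUSP1, an immediate early phosphatase of p38, JNK and ERK, went from 133 ± 46.7 CPM (SD, n = 3) in set 1 to 38.8 ± 10.0, a log2 fold change of −1.73 (SE 0.20, edgeR adjusted p = 0.00815). SPRY1 fell by 1.28 (SE 0.19, edgeR adjusted p = 0.0137), from 15.6 ± 3.07 to 6.47 ± 2.04 CPM, while its relative SPRY2 was higher. SPRED2 was at −0.72 (SE 0.13, edgeR adjusted p = 0.0190), under 2-fold. ETV1, the third PEA3 factor, was at 0.45 (SE 0.09, edgeR adjusted p = 0.0277) and FOSL2, which encodes the FRA-1 relative FRA-2, at 0.58 (SE 0.21, edgeR adjusted p = 0.100). FOS, the classic immediate early partner in AP-1, fell by 1.98 (SE 0.33, edgeR adjusted p = 0.0172) at low levels, from 3.46 ± 2.32 to 0.785 ± 0.223 CPM. The FOS call was lost without any 1 of the 3 donors, without the donor term, and against set 2 or both sets.

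The other called genes at 2 dyne/cm2 belonged to several roles. ETS2, an ETS factor activated by ERK phosphorylation, fell by 1.91 (SE 0.09), and FLT1, a receptor of vascular endothelial growth factor, fell by 1.39 (SE 0.11). The adaptors GAB1 (1.49, SE 0.11) and FRS2 (1.32, SE 0.15), which link receptors to RAS, rose, as did the ERK-activated kinase gene RPS6KA5 (1.67, SE 0.21). MYCN, a paralog of MYC, rose by 2.38 (SE 0.58), and the receptor gene FLT4 (1.42, SE 0.31), the ligand gene PDGFB (1.598, SE 0.34) and the protease inhibitor gene TFPI2 (1.06, SE 0.10) rose too. Against set 2, FLT1, DUSP1, MYCN, FOS, RPS6KA5 and SPRY1 were no longer called, and 6 of the 12 remained. Leaving out 1 donor also ended the calls of FLT4 (donor 1 or donor 3), TFPI2 (donor 1), and MYCN and PDGFB (donor 3).

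At 80 dyne/cm2 the called genes were SPRY1 and MYCN. SPRY1 rose by 1.24 on the log2 scale (SE 0.19, edgeR adjusted p = 0.0118), from 7.55 ± 1.21 CPM (SD, n = 3) in set 2 to 18.4 ± 6.26, with no overlap. MYCN rose by 1.18 (SE 0.17, edgeR adjusted p = 0.00982), while MYC was at −0.06. MYCN went from 5.71 ± 6.01 CPM in set 2 (2.11 to 12.6) to 13.3 ± 14.3 (3.90 to 29.7), so its groups overlapped. DUSP1 was at 0.55 (SE 0.10, edgeR adjusted p = 0.0197), under 2-fold, SPRED2 at 0.16, ETV1 at −0.26 and FOSL2 at 0.30. Neither call of SPRY1 and MYCN was made against set 1 or against both sets together. Leaving out donor 2 or donor 3 ended 1 of the 2 calls.

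**Figure D4:**
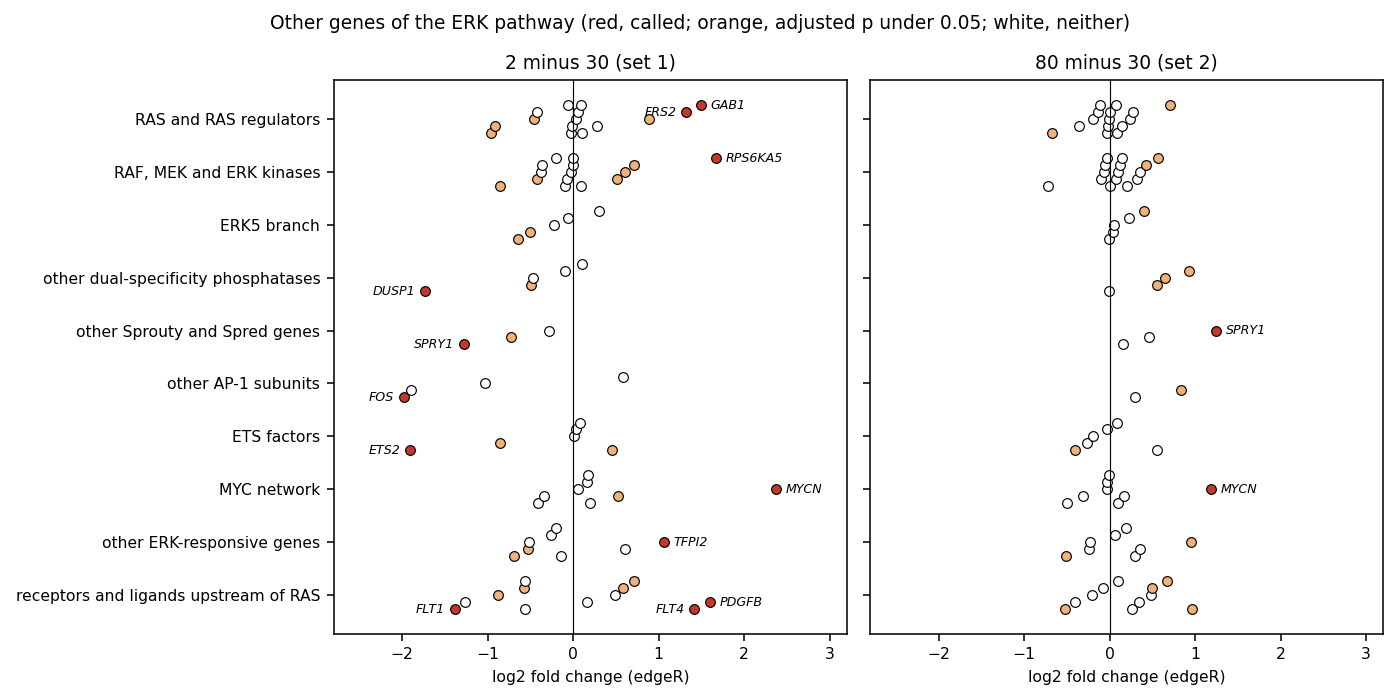
Log2 fold change (edgeR) of the other pathway genes by role, for 2 minus 30 dyne/cm2 (set 1, 81 genes) and 80 minus 30 dyne/cm2 (set 2, 77 genes); red points were called and bear names, orange points passed the adjusted p alone, and white points passed neither. The left panel holds 12 red points on both sides of 0, and the right panel holds 2, both above 0.

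Of the 9865 genes with a symbol and at least 1 CPM on average, those closest to FOSL1 in the profile over the 12 libraries, after each donor's mean was removed, were SGMS2, COQ10B, MAST4, ABL2 and EPHA2. Their mean absolute difference from FOSL1 was 0.127 to 0.138 on the log2 scale, where the median gene was at 0.323. The sixth was a member, SPRED1, at 0.146. The genes closest to DUSP6 were KCNJ2, RELT, IRF2BP2, STK10 and EVC, at 0.188 to 0.228 against a median of 0.419, and no member was among its nearest 100. DUSP4 lay far from both, at rank 9400 for FOSL1 and 9532 for DUSP6. This measure takes in the size of changes as well as their direction. The ranks of DUSP4, which had large changes, thus do not show that its direction differed.

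Endothelial identity was checked with marker genes. Of 10 endothelial markers, 7 had a row, and their summed level was 4623 to 5647 CPM at 2 dyne/cm2, 6740 to 7853 in set 1, 6396 to 7516 in set 2 and 8248 to 8313 at 80 dyne/cm2. The sum was thus lower at 2 dyne/cm2 than in set 1, as were 8 of the 10 members. At 80 dyne/cm2 the sum was higher than in set 2, without overlap. KDR was 1.41-fold higher there and passed the adjusted p alone (edgeR, 0.0231), and no other endothelial marker passed. At 2 dyne/cm2 against set 1 the markers differed among themselves. The receptor gene TEK was called lower (7.75-fold, edgeR adjusted p = 0.00479), PECAM1 (1.64-fold lower, 0.0346) and ESAM (1.47-fold lower, 0.0179) passed the adjusted p alone, and KDR (2.41-fold lower, 0.0609) did not pass. The junction gene CDH5 (1.08-fold lower, edgeR adjusted p = 0.521), TIE1 (1.13-fold lower, 0.255) and ERG (1.16-fold lower, 0.134) did not pass either. The 6 fibroblast markers summed to 364 to 1304 CPM at 2 dyne/cm2, 162 to 304 in set 1, 126 to 722 in set 2 and 46.3 to 175 at 80 dyne/cm2. At 2 dyne/cm2 most of it came from the collagen gene COL3A1 (780 ± 398 CPM, SD, n = 3). There, COL3A1 (3.93-fold, edgeR adjusted p = 0.00905) and PDGFRA (2.13-fold, 0.0300) were called higher. COL1A2 (1.95-fold higher, 0.0325) passed the adjusted p alone. COL1A1 (2.71-fold higher, 0.0590) and LUM (1.08-fold lower, 0.763) did not pass. COL3A1 was called lower at 80 dyne/cm2 (3.73-fold, edgeR adjusted p = 0.0203). Between the sets at 30 dyne/cm2 the endothelial sums overlapped, as did the fibroblast sums. No fibroblast marker passed the adjusted p there. COL1A2 came nearest, 2.15-fold higher in set 2 (edgeR adjusted p = 0.0830), while COL1A1 and LUM had estimates below 0. In donor 1, COL3A1 stood at 214 CPM in set 1 and 501 CPM in set 2, and COL1A2 at 72.2 and 204 CPM. In donors 2 and 3, COL3A1 was lower in set 2 and COL1A2 was higher. The 6 smooth muscle markers summed to 49.5 to 87.7 CPM, most of it from SMTN (44.1 to 83.2 CPM), with DES at 0 counts in every library. MYOCD, which encodes a smooth muscle coactivator, stood at 4.58 ± 0.66 CPM (SD, n = 3) at 2 dyne/cm2 and 0.703 ± 0.941 in set 1. That estimate was 8.73-fold higher and missed the adjusted p (edgeR, 0.0571). LMOD1 went the other way, 1.92-fold lower (edgeR adjusted p = 0.0535), and SMTN was 1.02-fold higher (0.844). MYH11, CNN1 and DES did not pass the filter. The 5 leukocyte markers summed to 7.55 to 27.1 CPM, most of it from the lysosomal gene CD68, with CD14 at 39 to 166 counts and PTPRC and CD3E at 0 to 2 counts. CD68 was called lower at 2 dyne/cm2 (2.25-fold, edgeR adjusted p = 0.00961), at 6.64 ± 1.61 CPM against 15.0 ± 3.22 in set 1. The 4 epithelial markers reached 0.211 CPM at most. The part of these markers in the results was not tested.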

How the data were processed

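RNA of 12 cultures (3 donors, 4 groups) was sequenced. The authors mapped single-end reads with STAR (version 2.4 per the labels) to Sscrofa11.1, discarded reads with several locations, and deposited raw counts per gene without normalization. The labels also list featureCounts 1.4.6 and CASAVA 1.8.2. No strand setting is given in the sources used here, so overlapping and antisense genes cannot be told apart. Pig identifiers were paired with symbols from tables of RefSeq (Sscrofa11.1) and Ensembl names: 14572 of 21153 genes had a symbol.

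A gene was tested where 3 or more of the libraries in a comparison reached 1 CPM, with edgeR 4.0.16 (R 4.3.3; TMM, quasi-likelihood) with replicate number as a block, and p-values were adjusted by Benjamini and Hochberg over all genes tested. DESeq2 1.42.0 was an alternative. Intervals cover 95%. The block follows the methods, which compare cultures of 1 donor, and the source labels, in which each replicate number has 1 cell letter. Deviations from group means correlated at 0.63 to 0.87 in the 18 pairs of the same number (11568 genes). They correlated at −0.55 to −0.18 in the 36 pairs of another number and another group. Since deviations sum to 0 within a group, the values below 0 follow from those above 0 and add no separate evidence. The scripts were tested on simulated counts with 200 changed genes.

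The members and gene lists were chosen with earlier results of these data known. Named besides the members were pathway genes called in either comparison, DUSP1, DUSP7, SPRY1, SPRED2, ETV1 and FOSL2, and the 5 genes closest to FOSL1 and to DUSP6. FN1, the markers named and the listed genes without a row were chosen after their values were seen.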

Additional observations from a re-analysis of the deposited data

How the results depend on the processing

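Alternatives were another control set, no replicate block, DESeq2, relative log expression scaling, other filters, the spread of all 12 libraries and leaving out each donor. DESeq2 without the block was added after seeing the data. At 2 vs. 30 dyne/cm2 the number of members called went from 1 to 0 with no replicate block or with both sets as control, to 2 (DUSP4 and DUSP5) in DESeq2 with the block or with the spread of all 12 libraries, and to 4 by the adjusted p alone; it was 1 to 1 without each donor, with DUSP5 in place of DUSP4 without donor 2. At 80 vs. 30 dyne/cm2 it was 0 to 1 without each donor and 0 otherwise. Between the sets it went from 0 to 5 in DESeq2 with the block, to 1 with no filter, and to 0 to 3 without each donor. For the difference between responses it went from 2 to 0 with no replicate block, to 4 with the sets swapped, and to 1 to 1 without each donor.

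Pathway genes called at 2 vs. 30 dyne/cm2 went from 12 to 6 against set 2 and to 34 of 81 by the adjusted p alone. At 80 vs. 30 dyne/cm2 they went from 2 to 0 with no replicate block, against set 1 and against both sets, to 1 with the spread of all 12 libraries or in DESeq2 without the block, to 18 by the adjusted p alone, and to 1 to 3 without each donor. Over all genes, the calls fell from 246 to 0 with no replicate block at 80 vs. 30 dyne/cm2 (929 at an unadjusted p under 0.05; DESeq2 without the block, 66) and from 1078 to 635 at 2 vs. 30 dyne/cm2.

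Signs turned mainly with the control set. At 2 vs. 30 dyne/cm2 the log2 fold changes against set 2 were 0.23 for DUSP5, 0.39 for DUSP6, 0.64 for SPRY4, 0.87 for ETV4 and 0.95 for ETV5 (0.023 against both sets). MYC was at −0.0396 with no replicate block, −0.0327 in DESeq2 without the block, and −0.14 to 0.61 without each donor. At 80 vs. 30 dyne/cm2 the values against set 1, and against both sets, were −1.39 and −0.60 for DUSP4, −0.73 and −0.23 for DUSP5, −0.87 and −0.44 for SPRY2, −0.97 and −0.42 for SPRY4, −0.32 and −0.15 for SPRED1, and −1.18 and −0.54 for ETV4. The cause was not tested. ETV5 did not pass the filter at 80 vs. 30 dyne/cm2 without donor 1, without donor 2 and with at least 10 counts in every library. FOSL1, which was not called, kept its sign in both comparisons under the alternatives run. The common spread over all genes (biological coefficient of variation) was 15.5% at 2 vs. 30 dyne/cm2 and 11.4% at 80 vs. 30 dyne/cm2. Members ranged around it: at 2 vs. 30 dyne/cm2 their SE ran from 0.09 (DUSP6) to 0.53 (DUSP4), against a median of 0.12 over all genes. With 3 donors, changes of the members may be missed, and DUSP5 missed the adjusted p at 2.07-fold.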
